A study of Mus musculus with 8 samples.

Results

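Expression of 10 genes of epithelial-mesenchymal transition (EMT) was examined in mouse embryonic fibroblasts (MEFs) and in MEFs treated with a small molecule. The genes were the transcription factors Snai1, Snai2, Twist1, Twist2, Zeb1, Zeb2 and Prrx1, the cadherins Cdh1 and Cdh2, and the intermediate filament gene Vim. They were chosen by name, with earlier results of these data known, and each symbol matched a single gene of the 50578 in the count table. EMT is the process in which epithelial cells lose their junctions and apical-basal polarity and take on a migratory, fibroblast-like form. Snail, Twist and Zeb factors drive it, largely by repressing epithelial genes such as Cdh1, while Cdh2 and Vim are classic mesenchymal genes. Fibroblasts are mesenchymal cells, so these factors are normally active in them, and the reverse process accompanies conversion of fibroblasts to epithelial cell types such as hepatic cells.

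Untreated MEFs were compared with MEFs given carbidopa (an inhibitor of aromatic L-amino acid decarboxylase), LY-364947 (an inhibitor of the TGF-beta type I receptor) or CHIR-99021 (an inhibitor of the kinase GSK3, used to activate Wnt signaling), to ask how each molecule changed the fibroblasts. LY-364947 appears as LY-364747 in the labels. All cells were wild type and came from E13.5 C57BL/6J embryos whose head, tail, limbs and internal organs had been removed, and they were used at passage 3 to 5. Each molecule was added at 10 µM from 2 h after plating and kept in the medium, whereas the length of treatment before RNA sequencing is not given in the sources used here. Every group held 2 libraries, and nothing in the labels says whether these were separate cultures, so the p-values measure only the spread between these libraries. MEFs are a mixed primary culture rather than a clone, and in such bulk RNA fewer cells of a type and less RNA per cell cannot be told apart.

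The 8 libraries held 15039566 to 20504338 counts, and 15154 genes had enough reads for a test, among them 9 of the 10 EMT genes. Between the 2 libraries of a group the chi-square of the counts per degree of freedom, where 1 stands for sampling noise, was 37.9 for carbidopa and 4.57 to 10.0 for the other groups, so the main values that move when a single carbidopa library is left out are given with and without it. The labels call the treated cells mouse hepatic-like cells. The 6 hepatocyte markers examined summed to 0.13 and 0.22 CPM (counts scaled to library size with TMM factors) in MEFs and to between 0.52 and 1.18 in the treated libraries, too few reads for a test. Alb, the gene of serum albumin, had 2 and 0 reads in MEFs and 5 to 10 in each treated library, and Serpina1a had no read in any library. Macrophage markers, in contrast, were present: all 7 were detected in every library, and their sum was 985 and 1025 CPM in the MEF libraries, 289 and 302 under carbidopa, 218 and 221 under LY-364947, and 71.1 and 79.6 under CHIR-99021. The 7 fibroblast markers summed to 12796 and 13190 in MEFs and to between 4602 and 7076 in the treated libraries. Of the 7, 5, 5 and 6 were called lower under carbidopa, LY-364947 and CHIR-99021, where 19.7%, 17.2% and 20.1% of all tested genes were. Pdgfra, a growth factor receptor of fibroblasts, was instead called higher with each (log2 fold change 0.49, 0.36 and 0.64), and Dcn, the matrix proteoglycan decorin, was not called under carbidopa (0.18) or LY-364947 (0.11). The part of these cell type markers in the results below was not tested.

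Snail and Zeb proteins bind a DNA element with the letters CACCTG, a form of the E-box CANNTG, on either strand. Windows from 250 bases before to 50 bases after the annotated start (RefSeq, GRCm38.p6) were examined for 6 of the 10 genes. They made 9 windows in all because Zeb2 had several starts. No window of Snai2, Zeb1, Cdh1 or Cdh2 was examined, so the motif counts do not cover these genes. Over all 32851 windows of this length, 20.2% held CACCTG or its reverse complement CAGGTG and 72.3% held CANNTG, which includes it. Of the 9 windows only that of Snai1 held either motif. The 250 bases before the start are shown for Snai1, with the single CACCTG in capitals. They are also shown for the outermost start of Zeb2, which lacked the motif. Both genes encode factors of the kind that bind this element. Whether the motif bears on expression was not tested. The sequences come from chr2:167537945-167538194 (plus strand) and chr2:45117443-45117692 (minus strand).
Snai1: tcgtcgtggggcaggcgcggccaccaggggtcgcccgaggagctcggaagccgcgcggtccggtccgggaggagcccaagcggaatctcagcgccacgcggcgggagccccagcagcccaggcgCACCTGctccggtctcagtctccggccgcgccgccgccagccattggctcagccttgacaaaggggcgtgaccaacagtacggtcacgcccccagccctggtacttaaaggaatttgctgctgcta
Zeb2: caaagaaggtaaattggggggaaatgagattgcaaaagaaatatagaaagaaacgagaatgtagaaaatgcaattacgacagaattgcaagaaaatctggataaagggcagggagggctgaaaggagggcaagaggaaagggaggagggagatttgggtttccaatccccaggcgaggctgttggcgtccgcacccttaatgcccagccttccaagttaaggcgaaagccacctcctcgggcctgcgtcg
The Snai1 match began 126 bases before the start. A match of letters is a description of the window and not a measured binding site.

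Snai2, Zeb2, Prrx1, Cdh2 and Vim were lower than in MEFs under each molecule, whereas Twist2 rose under each and Snai1 under CHIR-99021. Under carbidopa 1 of the 9 tested genes was called higher and 5 were called lower, under LY-364947 1 and 5, and under CHIR-99021 2 and 5. Called here means an adjusted p under 0.05 over all 15154 genes. The calls for Twist2, Zeb2 and Vim with each molecule held under all 15 alternative settings. That for Snai2 under carbidopa was lost under 12 of them. Cdh2 was not called with any molecule when libraries were scaled by total counts alone. Across all tested genes the shares called higher and lower were 18% and 19.7% under carbidopa, 13.7% and 17.2% under LY-364947, and 18.7% and 20.1% under CHIR-99021. The share of EMT genes called lower was thus above the share of all genes called lower, whereas 1 or 2 of 9 called higher is near the share of all genes. Because the genes were chosen with earlier results of these data known, this comparison of shares is a description and not a test. Their median log2 fold change was -0.29, -0.38 and -0.44 under carbidopa, LY-364947 and CHIR-99021, beside 0.04, 0.03 and 0.04 for all genes. These comparisons share the MEF libraries and so are not independent of each other.

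**Figure D1:**
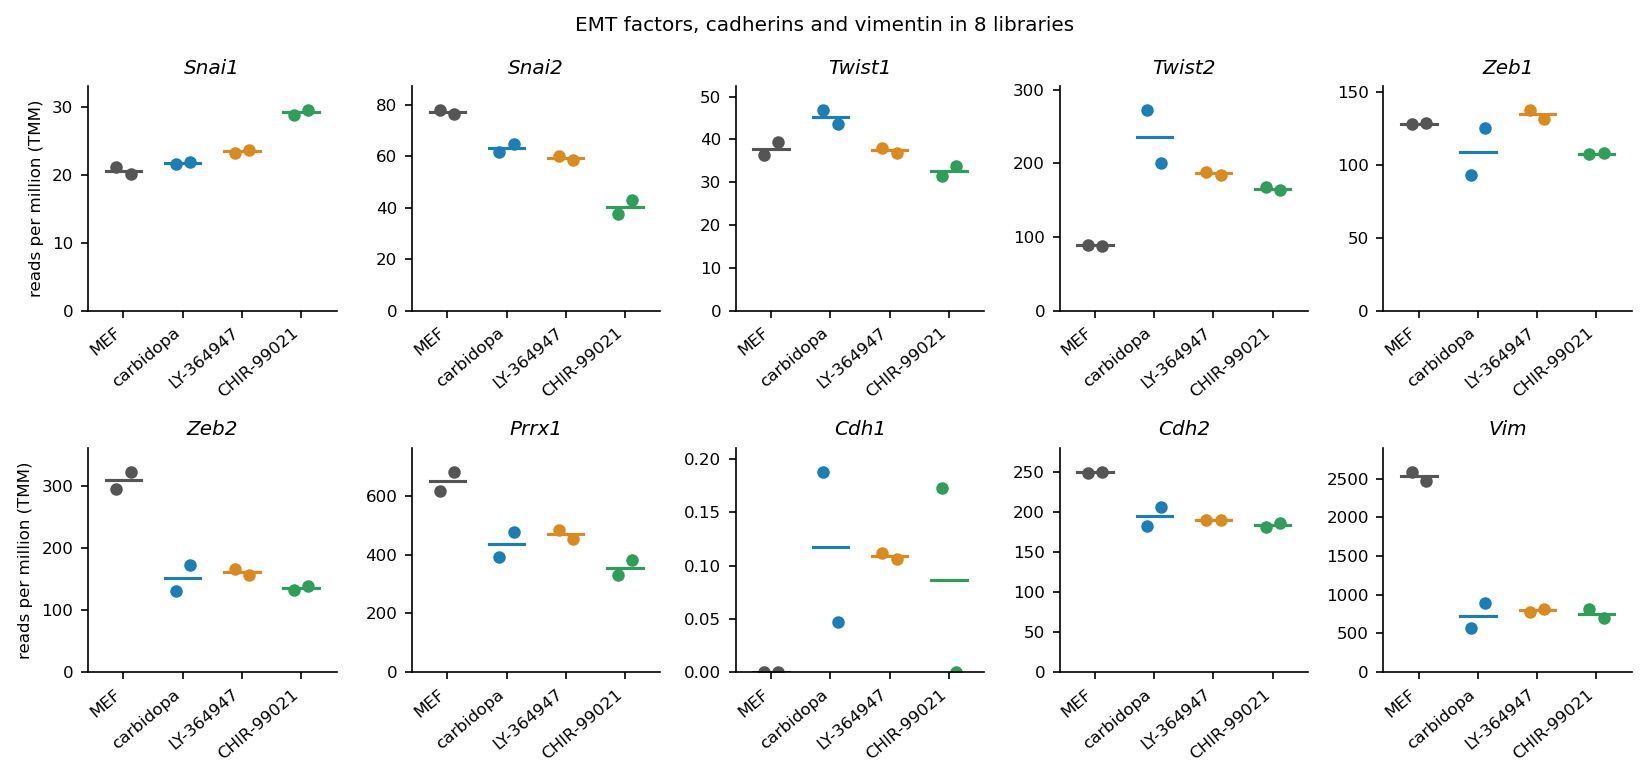
CPM (scaled by TMM, vertical axis) of each EMT gene in each library (points), with the mean of the 2 libraries of a group as a bar. Vim and Zeb2 are high in both MEF libraries and low in all 6 treated ones, Twist2 shows the opposite order, and Cdh1 stays under 0.2.

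Per unit of exon length, Vim was by far the most abundant of these genes. In MEFs it reached 1688 ± 114 TPM (reads per exon length, scaled to the same sum in each library; mean ± SD, n = 2), followed by Prrx1 at 186 ± 6.92, Snai2 at 121 ± 5.66, Cdh2 at 97.7 ± 2.78 and Twist2 at 88.3 ± 4.35. Twist1 had 73.4 ± 1.53 TPM, Zeb2 48.9 ± 1.53, Snai1 40.3 ± 2.83 and Zeb1 39.4 ± 1.24, and Cdh1 had no read. Neighbors in this order did not overlap between libraries, except Snai1 and Zeb1, whose ranges of 38.3 to 42.3 and 38.5 to 40.3 TPM did. The order changed in the treated cells: Twist2 moved from the fifth place to the second, at 257 ± 48.4 TPM under carbidopa, 212 ± 3.11 under LY-364947 and 189 ± 10.7 under CHIR-99021. Zeb2 moved from the seventh place to the ninth, at 26.5 ± 5.99, 29.1 ± 0.24 and 24.7 ± 0.16 TPM. Vim remained first at 535 ± 180, 606 ± 35.2 and 579 ± 82.2 TPM. Under CHIR-99021, Twist1 (71.6 to 73.3 TPM) and Snai2 (68.9 to 75.5 TPM) overlapped and cannot be ordered.

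**Figure D2:**
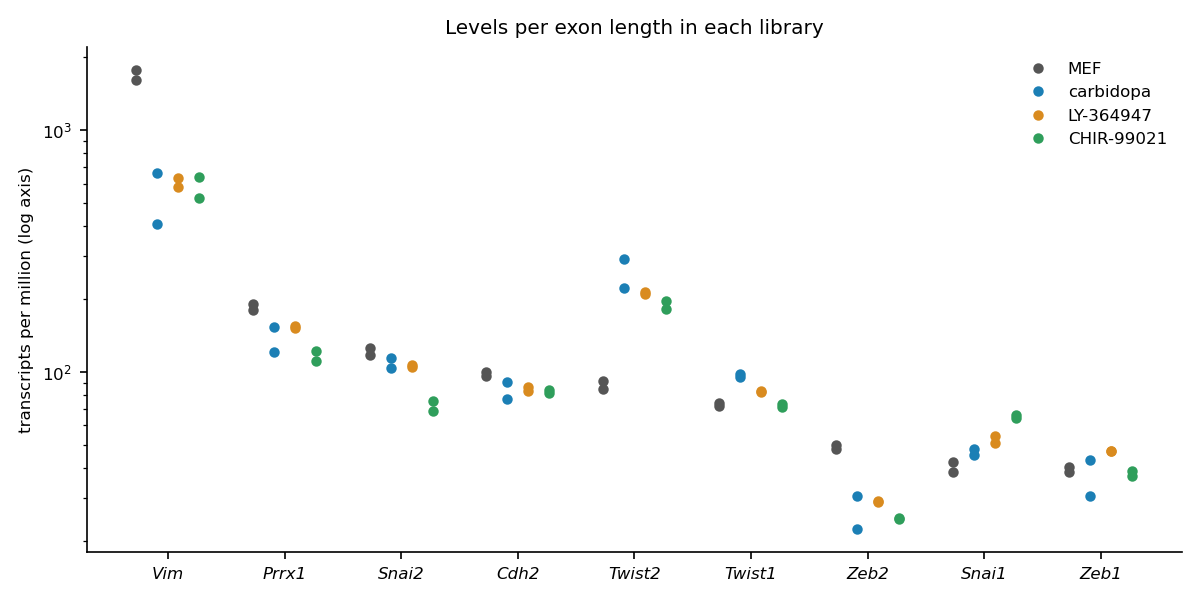
TPM (vertical axis, logarithmic) of the 9 expressed EMT genes in each library (points, colored by group), ordered by their mean in MEFs. Per exon length, Twist2 rises above Prrx1 in every treated library, whereas Zeb2 drops to the foot of the panel. Both depend on the length used. Cdh1 is left out because its value is 0 in some libraries.

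The Snail factors moved apart under CHIR-99021. Snai1 (ENSMUSG00000042821, mm10 chromosome 2, 167538195 to 167542814), a zinc finger repressor of epithelial genes, had 21.2 and 20.1 CPM in the MEF libraries, 21.6 and 21.97 under carbidopa, 23.3 and 23.8 under LY-364947, and 28.9 and 29.6 under CHIR-99021. Both CHIR-99021 libraries lay above all others, while the remaining groups were close together. The log2 fold change of Snai1 against MEFs was 0.50 under CHIR-99021 (standard error 0.11, adjusted p = 0.00466, edgeR's quasi-likelihood test) and not called under carbidopa (0.08, 95% interval -0.17 to 0.32) or LY-364947 (0.19, -0.06 to 0.43). Without MEF replicate 2 the adjusted p under CHIR-99021 was 0.0635.

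Snai2 (ENSMUSG00000022676, chromosome 16, 14705852 to 14709385), the relative of Snai1 known from neural crest and wound edges, had 77.9 and 76.5 CPM in MEFs, 61.6 and 64.8 under carbidopa, 59.9 and 58.6 under LY-364947, and 37.4 and 43.1 under CHIR-99021. All treated libraries lay under both MEF libraries, and both CHIR-99021 libraries under all others. Snai2 changed by -0.94 on the log2 scale under CHIR-99021 (standard error 0.10, adjusted p = 6.25e-05), a call that held under all 15 alternative settings. The difference under LY-364947 was -0.38 (0.10, adjusted p = 0.0174), and leaving out either MEF or either LY-364947 library raised its adjusted p to between 0.0949 and 0.118. That under carbidopa was -0.29 (0.10, adjusted p = 0.0484); it lay at the threshold and was lost under 12 of the 15 settings, with an adjusted p of up to 0.766. Snai2 also differed between the molecules: it was lower under CHIR-99021 than under carbidopa by -0.65 (0.10, adjusted p = 0.00268) and than under LY-364947 by -0.56 (0.10, adjusted p = 0.0064). Without CHIR-99021 replicate 1 these adjusted p values were 0.0502 and 0.101, and without LY-364947 replicate 1 the latter was 0.0735.

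The ratio of Snai2 to Snai1 reads within a library, which does not depend on how libraries are scaled, was 3.68 and 3.80 in MEFs, 2.86 and 2.95 under carbidopa, 2.57 and 2.47 under LY-364947, and 1.29 and 1.46 under CHIR-99021. The 4 groups did not overlap in this ratio. Corrected for exon length its mean went from 3.00 in MEFs to 1.10 under CHIR-99021. An exact permutation test of its log2 value over all 105 ways to split 8 libraries into pairs gave p = 0.00952. After adjustment over the 3 ratios tested it was 0.0143. This is the smallest p the test can give, and it follows from the lack of overlap between the groups. The test therefore adds nothing to that description. A pair of groups with 2 libraries each cannot go below an exact p of 0.333, so single pairs of groups were not tested.

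The Twist genes differed from each other in every treatment. Twist2 (ENSMUSG00000007805, chromosome 1, 91801461 to 91848028), a basic helix-loop-helix factor known from dermal fibroblasts, had 89.6 and 87.7 CPM in MEFs, 272 and 199.8 under carbidopa, 189 and 184 under LY-364947, and 168 and 163 under CHIR-99021. No treated library overlapped the MEF libraries, and the lowest of them had 163. Twist2 rose by a log2 fold change of 1.41 under carbidopa (standard error 0.14, adjusted p = 2.34e-05), 1.07 under LY-364947 (0.14, adjusted p = 0.00017) and 0.90 under CHIR-99021 (0.14, adjusted p = 0.000508), that is 2.66, 2.10 and 1.87 times the MEF level. These 3 calls held under all 15 alternative settings, and the carbidopa value was 1.17 without carbidopa replicate 1 and 1.62 without replicate 2. It was lower under CHIR-99021 than under carbidopa by -0.51 (0.13, adjusted p = 0.0294), a difference lost under 7 of 15 settings, among them the omission of either CHIR-99021 library (adjusted p = 0.159 and 0.15), either MEF library (0.0674 and 0.0623) or either LY-364947 library (0.0561 and 0.0602). The size of this difference was -0.27 without carbidopa replicate 1 and -0.71 without replicate 2, both called. A long noncoding gene on the opposite strand, Gm29100, shares 46.5% of the exon bases of Twist2; it was credited with 28 to 76 reads, and since it is not given whether counting used strand, reads of that stretch cannot be told apart.

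Twist1 (ENSMUSG00000035799, chromosome 12, 33957671 to 33959829), the relative needed for mesoderm and neural crest development, had 36.4 and 39.3 CPM in MEFs, 46.8 and 43.6 under carbidopa, 38.1 and 36.8 under LY-364947, and 31.3 and 33.7 under CHIR-99021. Both carbidopa libraries lay above the MEF libraries and both CHIR-99021 libraries lay under them. None of these differences from MEFs was called: 0.26 under carbidopa (95% interval 0.02 to 0.49, adjusted p = 0.0796), -0.02 under LY-364947 (-0.25 to 0.22, adjusted p = 0.928) and -0.22 under CHIR-99021 (-0.46 to 0.02, adjusted p = 0.132). Without carbidopa replicate 2 the first was 0.31 with an adjusted p of 0.0264. CHIR-99021 against carbidopa was called, at -0.48 (standard error 0.11, adjusted p = 0.0142), but not without CHIR-99021 replicate 1 (adjusted p = 0.148) or replicate 2 (0.0587), nor with only the groups compared (0.0923). The ratio of Twist2 to Twist1 reads within a library was 2.46 and 2.23 in MEFs, 5.81 and 4.58 under carbidopa, 4.96 and 4.99 under LY-364947, and 5.36 and 4.84 under CHIR-99021. The treated groups overlapped each other in this ratio and none overlapped MEFs. The exact permutation test over the 4 groups gave p = 0.143. That test also counts overlap among the treated groups, so it cannot decide whether they differ from MEFs. Corrected for exon length its mean was 1.20 in MEFs and 2.55 to 2.67 in the treated groups.

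**Figure D3:**
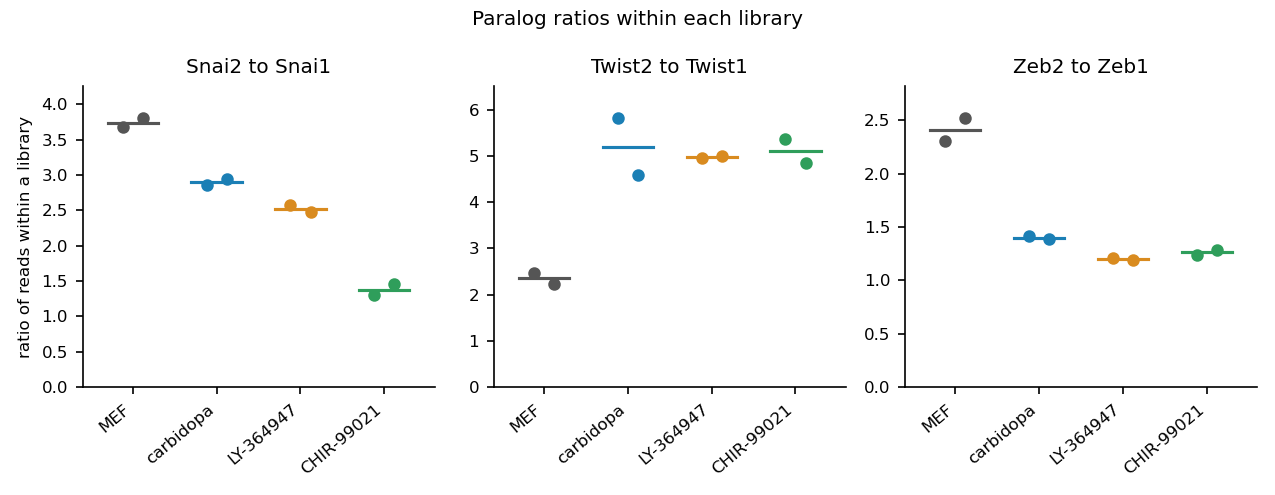
Ratio of reads (vertical axis, starting at 0) between paralogs within each library (points), with the mean of each group as a bar. The Snai2 to Snai1 ratio steps down from MEFs to CHIR-99021, the Twist2 to Twist1 ratio is higher and the Zeb2 to Zeb1 ratio lower in all 6 treated libraries than in both MEF libraries.

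Of the Zeb factors, which pair zinc finger clusters with a homeodomain and repress epithelial genes, only Zeb2 was called. Zeb2 (ENSMUSG00000026872, chromosome 2, 44983632 to 45117395) had 295 and 323 CPM in MEFs, 131 and 173 under carbidopa, 166 and 156 under LY-364947, and 133 and 138 under CHIR-99021. Every treated library was well under both MEF libraries. Zeb2 fell, with log2 fold changes of -1.02 under carbidopa (standard error 0.13, adjusted p = 0.000186), -0.94 under LY-364947 (0.13, adjusted p = 0.000343) and -1.19 under CHIR-99021 (0.13, adjusted p = 6.31e-05). The 3 calls held under all 15 alternative settings, with -0.83 and -1.24 under carbidopa when its replicate 1 or 2 was left out. Zeb2 is also expressed by macrophages. Of their 7 markers 6, 6 and 7 were called lower under carbidopa, LY-364947 and CHIR-99021, where 19.7%, 17.2% and 20.1% of all tested genes were. Mrc1, the mannose receptor of macrophages, had 538 and 757 reads in MEFs and 10 and 13 under CHIR-99021. The part of macrophage RNA in the fall of Zeb2 was not tested. CHIR-99021 against carbidopa was -0.17 in Zeb2 (95% interval -0.46 to 0.13, adjusted p = 0.449). It was -0.35 without carbidopa replicate 1 and 0.054, the other way, without replicate 2.

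Zeb1 (ENSMUSG00000024238, chromosome 18, 5591860 to 5775467) had 128 CPM in both MEF libraries, 92.6 and 125 under carbidopa, 137 and 131 under LY-364947, and 107 and 108 under CHIR-99021. The carbidopa libraries were far apart, and those under LY-364947 lay just above MEFs. No difference from MEFs was called: the log2 fold changes were -0.23 (95% interval -0.53 to 0.06, adjusted p = 0.187), 0.07 (-0.22 to 0.36, adjusted p = 0.732) and -0.25 (-0.55 to 0.04, adjusted p = 0.159) under carbidopa, LY-364947 and CHIR-99021. The value under carbidopa was -0.47 without its replicate 2 (adjusted p = 0.000741) and -0.03 without its replicate 1 (0.79), and that under CHIR-99021 was called when either carbidopa library was left out (adjusted p = 0.00905 and 0.00943) or with only the groups compared (0.00877). CHIR-99021 against LY-364947 was -0.32 (adjusted p = 0.138) in Zeb1 and was called under the same settings, with an adjusted p of 0.0046, 0.00486 and 0.00989. Within libraries the ratio of Zeb2 to Zeb1 reads was 2.31 and 2.52 in MEFs, 1.41 and 1.39 under carbidopa, 1.21 and 1.19 under LY-364947, and 1.24 and 1.28 under CHIR-99021. The 2 carbidopa libraries were close in this ratio although each gene differed between them. The 4 groups did not overlap in it, so the exact permutation test again gave its smallest p (0.00952, adjusted p = 0.0143). It adds nothing to that description. Corrected for exon length, Zeb2 exceeded Zeb1 in MEFs, with a mean ratio of 1.24, and was below it with each molecule, at 0.72, 0.62 and 0.65. This change of order depends on the length used, which joins the exons of all annotated transcripts (29 for Zeb2, 12 for Zeb1). Uncorrected, Zeb2 had more reads than Zeb1 in every library.

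Prrx1 (ENSMUSG00000026586, chromosome 1, 163245119 to 163313710), a homeobox factor of limb and craniofacial mesenchyme that can also drive EMT, had 618 and 683 CPM in MEFs, 393 and 477 under carbidopa, 485 and 453 under LY-364947, and 331 and 381 under CHIR-99021. It was lower than in both MEF libraries in every treated library. The fall of Prrx1 was -0.58 under carbidopa (standard error 0.12, adjusted p = 0.00444), -0.47 under LY-364947 (0.12, adjusted p = 0.0143) and -0.87 under CHIR-99021 (0.12, adjusted p = 0.000332) on the log2 scale. Leaving out carbidopa replicate 1 or 2 gave -0.45 and -0.73 under carbidopa, both called. The call under CHIR-99021 held under all 15 settings, whereas without MEF replicate 2 the adjusted p was 0.0595 under carbidopa and 0.142 under LY-364947, and without LY-364947 replicate 1 or 2 the latter was 0.0638 and 0.114. CHIR-99021 and LY-364947 differed by -0.40 (95% interval -0.67 to -0.13, adjusted p = 0.0573), which was called under 7 of the 15 settings, among them the omission of either carbidopa library (adjusted p = 0.0047 and 0.00491). Against carbidopa, CHIR-99021 gave -0.29 in Prrx1 (adjusted p = 0.147), which was called without carbidopa replicate 1 (-0.42, adjusted p = 0.0135) and not without replicate 2 (-0.14, adjusted p = 0.324).

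Of the cadherins, Cdh2 was expressed in all groups and Cdh1 hardly at all. Cdh1 (ENSMUSG00000000303, chromosome 8, 106603351 to 106670246), the adhesion molecule of epithelial junctions, had no read in either MEF library, 4 and 1 reads under carbidopa, 2 and 2 under LY-364947, and 3 and 0 under CHIR-99021. No library exceeded 4 reads, too few for a test, and a count of 0 allows up to 0.223 and 0.194 CPM in the MEF libraries and 0.174 in the CHIR-99021 library concerned (counting error only). Fitted without the filter on low counts, Cdh1 had an adjusted p of 0.317, 0.391 and 0.435 against MEFs under carbidopa, LY-364947 and CHIR-99021, so a change in Cdh1 was not detectable at this depth.

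Cdh2 (ENSMUSG00000024304, chromosome 18, 16588877 to 16809246), the cadherin of mesenchymal and neural cells, had 248 and 250.1 CPM in MEFs, 183 and 206 under carbidopa, 190.2 and 189.6 under LY-364947, and 181 and 186 under CHIR-99021. The treated libraries lay close together, all below MEFs. Cdh2 differed from MEFs by -0.36 under carbidopa (standard error 0.10, adjusted p = 0.0155; -0.27 or -0.45 without its replicate 1 or 2), -0.39 under LY-364947 (0.10, adjusted p = 0.0109) and -0.44 under CHIR-99021 (0.10, adjusted p = 0.00494), the smallest falls among the genes called lower under CHIR-99021. All 3 calls were lost without MEF replicate 2, and those under carbidopa and LY-364947 also without MEF replicate 1. The call under LY-364947 was lost without either of its libraries, and that under CHIR-99021 without its replicate 1. These fits leave 1 library in a group, and the values kept their sign. Over the omission of any single library they ran from -0.45 to -0.27 under carbidopa. Under LY-364947 they ran from -0.40 to -0.39, and under CHIR-99021 from -0.45 to -0.42. Between molecules Cdh2 did not pass the test, and the interval of CHIR-99021 against carbidopa was -0.30 to 0.13. Cdh2 reads were 970 times the Cdh1 reads in carbidopa replicate 1 and, with Cdh1 at no more than 3 reads, at least 1049.7 times in each of the other 7 libraries.

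Vim (ENSMUSG00000026728, chromosome 2, 13573927 to 13582826), the intermediate filament protein of mesenchymal cells, had the largest change of the 9 tested EMT genes against MEFs with each molecule. It had 2591 and 2470.5 CPM in MEFs, 570.3 and 888 under carbidopa, 782 and 810.4 under LY-364947, and 812 and 699 under CHIR-99021. The highest treated library held well under the lower MEF library. The log2 fold change of Vim was -1.80 under carbidopa (standard error 0.18, adjusted p = 2.92e-05), -1.67 under LY-364947 (0.18, adjusted p = 5.06e-05) and -1.74 under CHIR-99021 (0.18, adjusted p = 3.45e-05), so it was 3.47, 3.18 and 3.35 times lower. These calls held under all 15 settings, and that under carbidopa was -1.51 without its replicate 1 and -2.15 without its replicate 2. The molecules themselves did not differ in Vim by the test: CHIR-99021 against carbidopa was 0.05 (95% interval -0.34 to 0.44), CHIR-99021 against LY-364947 -0.08 (-0.46 to 0.31) and LY-364947 against carbidopa 0.13 (-0.26 to 0.52). The carbidopa libraries lay furthest apart, and without carbidopa replicate 2 the first and the last of these were 0.41 (adjusted p = 0.00779) and 0.48 (adjusted p = 0.00559). Without carbidopa replicate 1 both turned, to -0.23 (adjusted p = 0.113) and -0.16 (adjusted p = 1), so their sign depended on which carbidopa library was kept. Vim is also made by macrophages, and the part of their RNA in its fall was not tested. The macrophage marker sum was 985 to 1025 CPM in MEFs, 289 to 302 under carbidopa, 218 to 221 under LY-364947 and 71.1 to 79.6 under CHIR-99021.

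**Figure D4:**
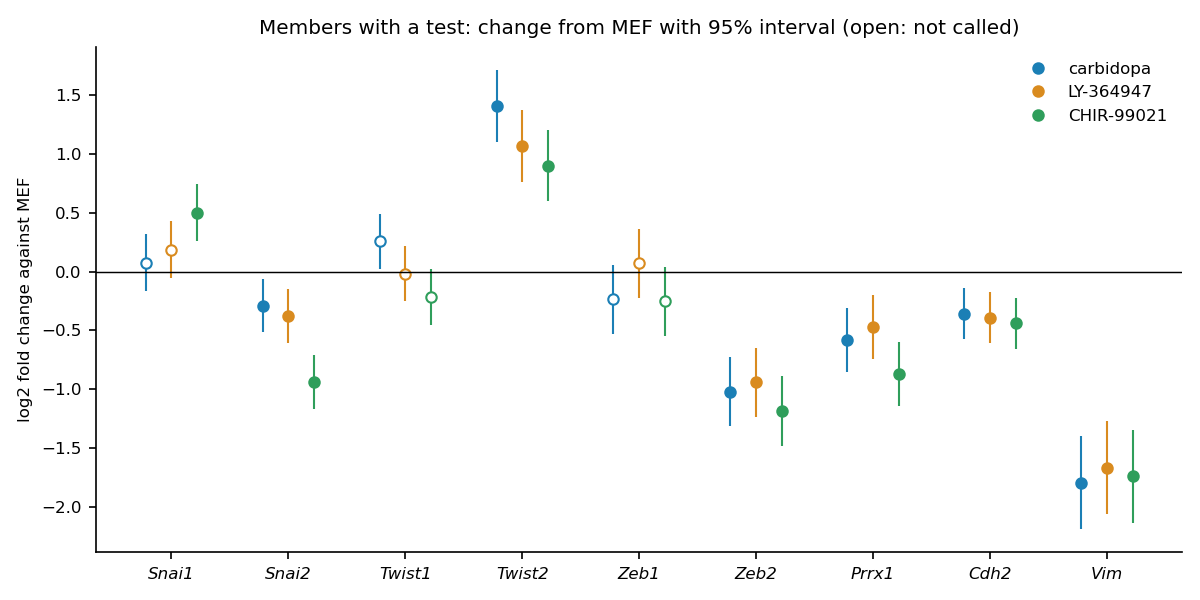
Log2 fold change against MEFs (vertical axis) of the 9 tested EMT genes for each molecule (color), with 95% intervals as lines; open points were not called. Vim, Zeb2 and Prrx1 lie below 0 and Twist2 above 0 for all 3 molecules, while Snai1 and Snai2 separate most under CHIR-99021.

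Between molecules, at the same dose of 10 µM, fewer EMT genes differed. CHIR-99021 against carbidopa called 1 gene higher, Snai1 (0.43, standard error 0.11, adjusted p = 0.0244), and 3 lower, Snai2, Twist1 and Twist2, where 6.62% of all genes were called higher and 8.08% lower. The Snai1 call was lost under 9 of 15 settings, with an adjusted p between 0.0505 and 0.132 in those, among them the omission of either MEF, either LY-364947 or either CHIR-99021 library. CHIR-99021 against LY-364947 called Snai2 alone, lower, and none higher, where 6.45% of all genes were higher and 7.69% lower. LY-364947 and carbidopa differed in none of the 9 genes by edgeR or DESeq2, and 0.0132% of all genes were called in either direction. At an unadjusted p under 0.05, 3 of the 9 differed, namely Twist1 and Twist2, lower under LY-364947, and Zeb1, higher, where 9.02% of all genes did. With carbidopa replicate 2 left out, 5 of the 9 were called between these molecules, where 24.1% of all 15838 genes then tested were: Twist1 (-0.33, adjusted p = 0.0386) and Twist2 (-0.55, adjusted p = 0.000904) lower, and Zeb1 (0.54, adjusted p = 0.00165), Zeb2 (0.30, adjusted p = 0.0334) and Vim (0.48, adjusted p = 0.00559) higher under LY-364947. None of these 5 was called with carbidopa replicate 1 left out instead (adjusted p = 1 each), and Zeb2 and Vim then turned to -0.11 and -0.16. A missed threshold does not show that the molecules acted alike.

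The scaling of the libraries bears on the smaller changes. TMM factors, which correct for a few genes taking many reads, were 0.880 and 0.895 in MEFs and 1.03 to 1.06 in treated libraries. Scaled by total counts alone, an alternative chosen after seeing the data, the median of all genes moved to 0.29, 0.25 and 0.26 under carbidopa, LY-364947 and CHIR-99021, and 5542, 4232 and 5115 genes were called higher and 1956, 1814 and 2217 lower. The calls for Twist2, Zeb2 and Vim with each molecule and for Snai2 and Prrx1 under CHIR-99021 held on that scale. Cdh2 was then not called with any molecule (-0.11, -0.17 and -0.23), nor Snai2 under carbidopa (-0.04) or LY-364947 (-0.16) or Prrx1 under LY-364947 (-0.25). Snai1 was called higher under carbidopa (0.33, adjusted p = 0.0336) and LY-364947 (0.41, adjusted p = 0.0149), and Twist1 under carbidopa (0.51, adjusted p = 0.00342). The paralog ratios within libraries do not change with scaling.

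Other genes of the same pathway were examined in 6 lists. Their counts stand beside the shares of all tested genes called higher and lower. These were 18% and 19.7% under carbidopa, 13.7% and 17.2% under LY-364947, and 18.7% and 20.1% under CHIR-99021. The lists were chosen with earlier results of these data known, so such comparisons are descriptions and not tests. Of 18 other EMT regulators, 16 were tested: 5 were higher and 6 lower under carbidopa and under LY-364947, and 5 and 5 under CHIR-99021, with medians of -0.25, -0.21 and -0.27. Ets1, a factor of mesenchymal and endothelial cells, rose by 1.39, 1.52 and 1.87 under carbidopa, LY-364947 and CHIR-99021 (standard error 0.09 each, adjusted p = 1.67e-06, 9.07e-07 and 1.98e-07). Id3, an inhibitor of helix-loop-helix factors such as Twist, rose by 3.21, 2.77 and 2.88 (adjusted p = 1.56e-05, 4.65e-05 and 3.32e-05). Prrx2, the close relative of Prrx1, fell, with log2 fold changes of -1.80, -2.30 and -2.03 (adjusted p = 2.75e-05, 6.6e-06 and 1.38e-05); whether it fell further than Prrx1 was not tested. Prrx2 had 31.5 and 29.9 CPM in MEFs and 5.61 to 10.4 in the treated libraries.

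The epithelial side was little expressed. Only 4 of 12 epithelial regulators that oppose EMT could be tested, of which 1 was lower under each molecule and 1 higher under CHIR-99021, and Ovol2 and Cdx2 had no read in any library. Klf4, which can hold back EMT and is also a reprogramming factor, fell, by log2 fold changes of -0.44, -0.55 and -0.55 in the same order of molecules (standard error 0.10 each, adjusted p = 0.0087, 0.00239 and 0.00236). Esrp2, a splicing regulator of epithelial cells, was called higher under CHIR-99021 (1.84, standard error 0.57, adjusted p = 0.0258), on 58 and 48 reads against 2 and 23 in the MEF libraries, which were far apart. Klf5 was not called with any molecule (0.11, 0.43 and 0.38). Of 11 epithelial genes of common EMT panels 6 were tested, of which 1 was higher and 1 lower under carbidopa, 2 and 0 under LY-364947, and 4 and 0 under CHIR-99021, with medians of 0.71, 0.58 and 1.01.

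The 6 tested epithelial panel genes did not move together, and apart from Tjp1 those that rose had low counts. Dsp, the desmosome protein desmoplakin, had 92 and 128 reads in MEFs and was called lower under carbidopa (-0.86, adjusted p = 0.0159), not called under LY-364947 (-0.67, adjusted p = 0.0536) and not called under CHIR-99021 (0.26). Tjp1, a scaffold of tight junctions also present in fibroblasts, had 2574 and 3023 reads in MEFs and was called higher under LY-364947 (0.65, adjusted p = 0.00818) and CHIR-99021 (0.66, adjusted p = 0.00592). Krt19, a keratin of simple and ductal epithelia, had 43 and 36 reads in MEFs, 408 and 244 under carbidopa, 150 and 194 under LY-364947, and 139 and 105 under CHIR-99021, and rose by 2.48, 1.77 and 1.36 on the log2 scale (adjusted p = 0.000114, 0.00139 and 0.00652). Krt18, a keratin of simple epithelia, had 5 and 10 reads in MEFs and 45 and 48 under CHIR-99021 (2.37, standard error 0.40, adjusted p = 0.00101), and was not called under carbidopa (1.11) or LY-364947 (0.51). Cldn4, a claudin of tight junctions, had 2 and 2 reads in MEFs and 36 and 29 under CHIR-99021 (3.70, standard error 0.60, adjusted p = 0.000772), and was not called under carbidopa (1.71) or LY-364947 (1.32). Epcam, the epithelial adhesion molecule, had no read in MEFs and 2 to 6 in the treated libraries, and like Cdh1 could not be tested.

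Other cadherins were lower in treated cells as well. Of 11 other cadherins and catenins 9 were tested. Of these, 7, 6 and 6 were lower in the same order of molecules, with none higher and medians of -1.57, -1.50 and -1.07. Among all tested genes 19.7%, 17.2% and 20.1% were called lower. Cdh3, or P-cadherin, had log2 fold changes of -4.41, -3.84 and -1.83 (standard error 0.20, 0.20 and 0.17, adjusted p = 1.15e-07, 2.35e-07 and 1.83e-05). Cdh13, or T-cadherin, had -2.68, -2.75 and -3.68 (adjusted p = 7.58e-07, 7.25e-07 and 1.25e-07), and Cdh4, or R-cadherin, -4.06, -3.98 and -4.08 (adjusted p = 2.03e-07, 2.48e-07 and 2.21e-07). Ctnnb1, the beta-catenin that links cadherins to actin and carries Wnt signals, was not called with any molecule (-0.13, -0.20 and -0.11).

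Vim did not stand for all genes of its kind. Of 8 other intermediate filament and linker genes 6 were tested, and 3 were higher and 3 lower with every molecule. Nes, the intermediate filament protein nestin of progenitor cells, rose by 2.46, 2.41 and 2.32 under carbidopa, LY-364947 and CHIR-99021 (standard error 0.16 each, adjusted p = 1.14e-06, 1.31e-06 and 1.6e-06), from 18.3 and 23.1 CPM in MEFs to between 93.8 and 122. Plec, a linker of filaments to junctions, fell, with -1.87, -1.60 and -0.69 (adjusted p = 8.84e-06, 2.65e-05 and 0.00555). Des, the filament of muscle cells, fell, with -1.69, -2.12 and -1.53 (adjusted p = 4.08e-05, 1.08e-05 and 8.37e-05).

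All 10 mesenchymal genes of EMT panels were tested, and 10, 10 and 8 were lower in that order, with none higher and medians of -1.18, -0.99 and -1.15. Acta2, the smooth muscle actin of myofibroblasts, had log2 fold changes of -4.51, -4.32 and -4.17 (standard error 0.18 each, adjusted p = 4.52e-08, 5.7e-08 and 6.48e-08), from 2161 and 1969.5 CPM in MEFs to between 90.1 and 134. S100a4, a calcium-binding protein also called fibroblast-specific protein and known from macrophages too, had -1.60, -1.75 and -2.86 (adjusted p = 5.4e-06, 3.08e-06 and 1.19e-07). Col1a1, a chain of the main fibroblast collagen, had -2.57, -1.03 and -1.54 (adjusted p = 2.55e-07, 0.000135 and 8.09e-06). For these 3 genes and each molecule the values lay further below 0 than those of Cdh2, Snai2 and Prrx1. This difference was not tested. The 3 were named for the smallest p of the list, so it does not stand for all 10 genes. Under CHIR-99021 the 2 genes not called were Tnc (0.43) and Itga5 (-0.04).

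**Figure D5:**
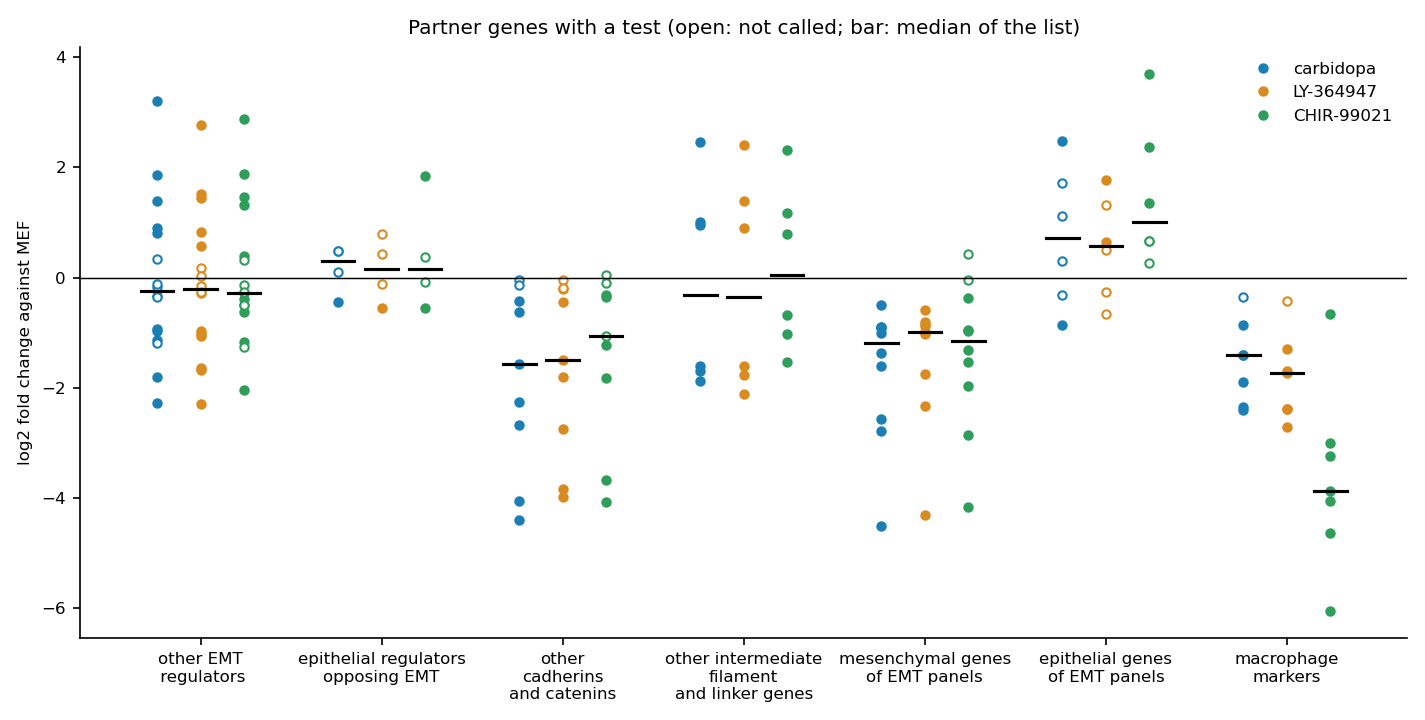
Log2 fold change against MEFs (vertical axis) of each tested gene of the 6 related lists and of the macrophage markers, by molecule (color), with the list median as a bar; open points were not called. Other cadherins, mesenchymal panel genes and macrophage markers lie mostly below 0, whereas the other EMT regulators and filament genes spread to both sides.

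Genes whose pattern over the 8 libraries was most like that of a member were found by the root mean square (RMS) difference of centered log2 CPM, among 10453 genes with a mean of at least 100 reads. For Vim these were Nrp2 (RMS difference 0.0999), Itga4 (0.123) and Fgf2 (0.131), where Vim itself varied by an RMS of 0.778 around its mean. For Snai2 they were Sqle (0.0609), Oxr1 (0.0613) and Slc37a2 (0.0695), beside an RMS of 0.345 for Snai2 itself. For Cdh2 they were Stt3b (0.0334), Rabif (0.0407) and Kifap3 (0.0410), beside 0.18, and for Zeb1 Ccnt2 (0.0420), Tbck (0.0437) and Marf1 (0.0493), beside 0.182. The 8 libraries form 4 groups of 2, so this likeness describes the group means more than independent samples.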

How the data were processed

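RNA-seq of 8 libraries was analysed. Per the study's methods and the labels, the authors aligned reads to mm10 with STAR 2.4.2a and counted them per gene with featureCounts; DESeq2 and bcl2fastq are also named. The annotation release and strand setting are not given in the sources used here, and the library kit is named differently in the labels and the methods. The deposited values are raw counts per gene. From these, edgeR 4.0.16 (R 4.3.3) was used with TMM scaling, filterByExpr and the quasi-likelihood test on all 8 libraries with group as the only term, leaving 4 residual degrees of freedom. P-values were adjusted by Benjamini-Hochberg over 15154 of 50578 genes. Standard errors are the log2 fold change over the root of F. TPM used union exon lengths of GENCODE M21 (GRCm38), in which 99.6% of gene identifiers were found. Alternatives were DESeq2 1.42.0, RLE factors, other count filters, only the groups compared, a replicate block, each library left out and total-count scaling. Paralog ratios were tested over the 4 groups by exact permutation, a test added after the ratios were seen. Only the edgeR fit was tried on simulated counts, for CHIR-99021 against MEFs, with far fewer changed genes than were called here. The other steps were not tested in this way. Replicate numbers in the labels did not pair samples.

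The members and lists were chosen with earlier results of these data known. Named genes were all 10 members, the 3 tested genes of each list with the smallest p against MEFs, and the 3 genes most like Snai2, Zeb1, Cdh2 and Vim; Mrc1, Ctnnb1, Tjp1, Dsp, Epcam, Ovol2, Cdx2, Alb, Serpina1a, Pdgfra and Dcn were named after their values were seen. Endothelial, Schwann cell and muscle markers summed to at most 31.5 CPM, and hepatic progenitor markers to 458 and 523 in MEFs and at most 219.7 in treated libraries. Protein identity was not analysed here.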

Additional observations from a re-analysis of the deposited data

Results flagged for a closer look

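Twist1 lay on opposite sides of the MEF libraries with different molecules: both carbidopa libraries were above both MEF libraries and both CHIR-99021 libraries below them. Neither distance from MEFs passed the test (0.26, adjusted p = 0.0796, and -0.22, adjusted p = 0.132). The difference itself, CHIR-99021 against carbidopa, was -0.48 on the log2 scale (edgeR's quasi-likelihood test, adjusted p = 0.0142), and it was not called without CHIR-99021 replicate 1 (adjusted p = 0.148) or replicate 2 (0.0587) or with only the groups compared (0.0923).

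Zeb1 was above both MEF libraries in both LY-364947 libraries and below them in both CHIR-99021 libraries and both carbidopa libraries. Carbidopa replicate 2 lay only just below, at 125 CPM against 128 in both MEF libraries. CHIR-99021 against LY-364947 was -0.32 (adjusted p = 0.138) and LY-364947 against carbidopa was 0.30 (adjusted p = 0.519), so neither difference passed the test with all libraries. The first was called without either carbidopa library (adjusted p = 0.0046 and 0.00486) and with only the groups compared (0.00989), and the second without carbidopa replicate 2 (0.54, adjusted p = 0.00165) but not without replicate 1 (0.10, adjusted p = 1).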

How the results depend on the processing

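Against MEFs, 186 of 216 fold changes of single genes kept direction and call with 1 library left out, 130 of 135 under DESeq2, RLE, other filters or only the groups compared, and 16 of 27 under total-count scaling. Between molecules these were 173 of 216, 123 of 135 and 26 of 27. With 1 library left out, the number of EMT genes called ran from 3 to 8 under carbidopa (6 with all libraries; 3 without MEF replicate 2), from 3 to 6 under LY-364947 (6; 3 without MEF replicate 2 or either LY-364947 library), and from 5 to 8 under CHIR-99021 (7). For CHIR-99021 against carbidopa (4) it ran from 0 to 6, with 2 without either MEF or either LY-364947 library, 1 when CHIR-99021 replicate 2 was omitted and 0 when replicate 1 was. For CHIR-99021 against LY-364947 (1) it ran from 0 to 5, with 5 without either carbidopa library and 0 without LY-364947 or CHIR-99021 replicate 1. For LY-364947 against carbidopa (0) it ran from 0 to 5, with 5 without carbidopa replicate 2. With all libraries, 37.7%, 31.0% and 38.8% of all genes were called against MEFs under carbidopa, LY-364947 and CHIR-99021. Between molecules, 14.7% were called for CHIR-99021 against carbidopa, 14.1% for CHIR-99021 against LY-364947 and 0.0132% for LY-364947 against carbidopa. These shares also rose and fell with the library left out, so the counts do not describe the EMT genes alone. A lone library left in a group was assumed to vary like the other groups.

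With only the groups compared, 1 EMT gene was called between CHIR-99021 and carbidopa, where 7.13% of all genes were. Between CHIR-99021 and LY-364947 5 were called, where 25.4% of all genes were. The latter count was 2 under DESeq2, without a filter, with at least 10 counts in every library and under total-count scaling. In these settings 13.6%, 10.7%, 16.1% and 13.8% of all genes were called. The cause was not tested. Total-count scaling turned Zeb1 under carbidopa to 0.014 and Twist1 under LY-364947 to 0.21, neither called. Over the omissions of single libraries the sign also changed for Twist1 under LY-364947 (-0.073 to 0.039), for CHIR-99021 against carbidopa in Zeb1 (-0.21 to 0.22), Zeb2 (-0.35 to 0.054), Cdh2 (-0.16 to 0.010) and Vim (-0.23 to 0.41), for CHIR-99021 against LY-364947 in Vim (-0.18 to 0.034), and for LY-364947 against carbidopa in Zeb2 (-0.11 to 0.30), Prrx1 (-0.025 to 0.25), Cdh2 (-0.12 to 0.055) and Vim (-0.16 to 0.48). None of these was called with all libraries.

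The labels give only a number to replicates; deviations of same-numbered libraries had correlations of -0.16 to 0.13 across groups, so they were not paired. A replicate block gave 5 EMT genes called under carbidopa, 6 under LY-364947 and 7 under CHIR-99021; Snai2 under carbidopa (-0.29, adjusted p = 0.0679) was its only lost call, and over all genes 5473, 4424 and 5722 were called in place of 5717, 4694 and 5878. Over all genes, with only the groups compared, CHIR-99021 against carbidopa called 1027 in place of 2227 and CHIR-99021 against LY-364947 3673 in place of 2143. LY-364947 against carbidopa called 16 genes under DESeq2, 329 without a filter and 0 with only the groups compared, in place of 2. Depth limits Cdh1, whose 0 to 4 reads allow no comparison.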
